A study of Arabis alpina with 9 samples.

Results

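The genes described here are those that the authors listed as higher or lower in the eop089 mutant of Arabis alpina than in its control at the 5-week-old shoot apex. Every gene of their deposited lists for that tissue and age was taken, 66 listed higher and 50 listed lower, which makes 116 of 30538 counted gene IDs (0.38%). Arabis alpina is a perennial plant of the cabbage family, and the study asks how AaTFL1, the Arabis counterpart of the Arabidopsis floral repressor TFL1, regulates flowering. The mutant, in the accession Pajares, is given by its line name only, and the control plants are described no further in the labels. Poly(A) RNA was sequenced from dissected shoot apices of long-day-grown mutant plants aged 3 and 5 weeks and from the fifth and the sixth leaf of mutant plants aged 5 weeks, with 3 libraries of each.

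In Arabidopsis the circadian clock is built from genes that repress one another in turn over the day. Morning genes include the pseudo-response regulator PRR9 and the LNK family, and evening genes include ELF4 and LUX, whose proteins join ELF3 in the evening complex that represses PRR9. Clock output reaches flowering through the blue-light receptor FKF1, and it also times carbon use, light harvesting and defence. The shoot apex is a sink tissue that imports sugar, and genes of dormancy and of carbon shortage are widely used as markers of the state of buds and apices.

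The 3 mutant 5-week apex libraries held 12667509, 11859813 and 12257436 counts in genes. Nothing in the labels states that the replicates were separate plants, so the p-values below measure the spread between these libraries only. Control libraries entered only as the authors' means. Each mutant library was therefore placed on the scale of those means with median-ratio size factors and 1 constant (0.892), after which the mean of the 3 libraries lay within 5% of the authors' mutant mean for all 102 listed genes with a mean of at least 10 counts. Values called normalised counts below are on that scale. The authors chose these genes by their fold and adjusted p, so both are given as a description and are not tested again. In bulk tissue, fewer cells of a type and less RNA per cell cannot be told apart.

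By function, as read from the listed names, 10 genes were clock-linked and 10 were of defence and stress. Hormones, transcription and development took 7 genes, and dormancy, carbon and sugar 6. Transport and metals had 5 and metabolic enzymes 5. Glucosinolates, cell wall, and light and photosynthesis had 4 each. Function was other or unknown for 11 genes, and 50 were not paired with an Arabidopsis gene. Of the 116 genes, 66 were paired with an Arabidopsis gene in the authors' deposited table, 46 of those listed higher and 20 of those listed lower. In that deposited table the median log2 fold was 1.55 for the genes listed higher and -1.51 for those listed lower. The authors' deposited table put 23 genes at 4-fold or more above the control and 16 at 4-fold or more below it, counting the 5 genes with a mean of 0 in 1 of the groups. Its smallest change was 2.03-fold and its largest adjusted p was 0.0496, and 13 genes lay within 2.1-fold. All 3 mutant libraries lay on the listed side of the control mean for 110 of the 116 genes, and 67 genes were at least 2-fold away in every library. The same libraries gave the means on which the genes were listed, so these counts are no independent support for the listing.

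**Figure D1:**
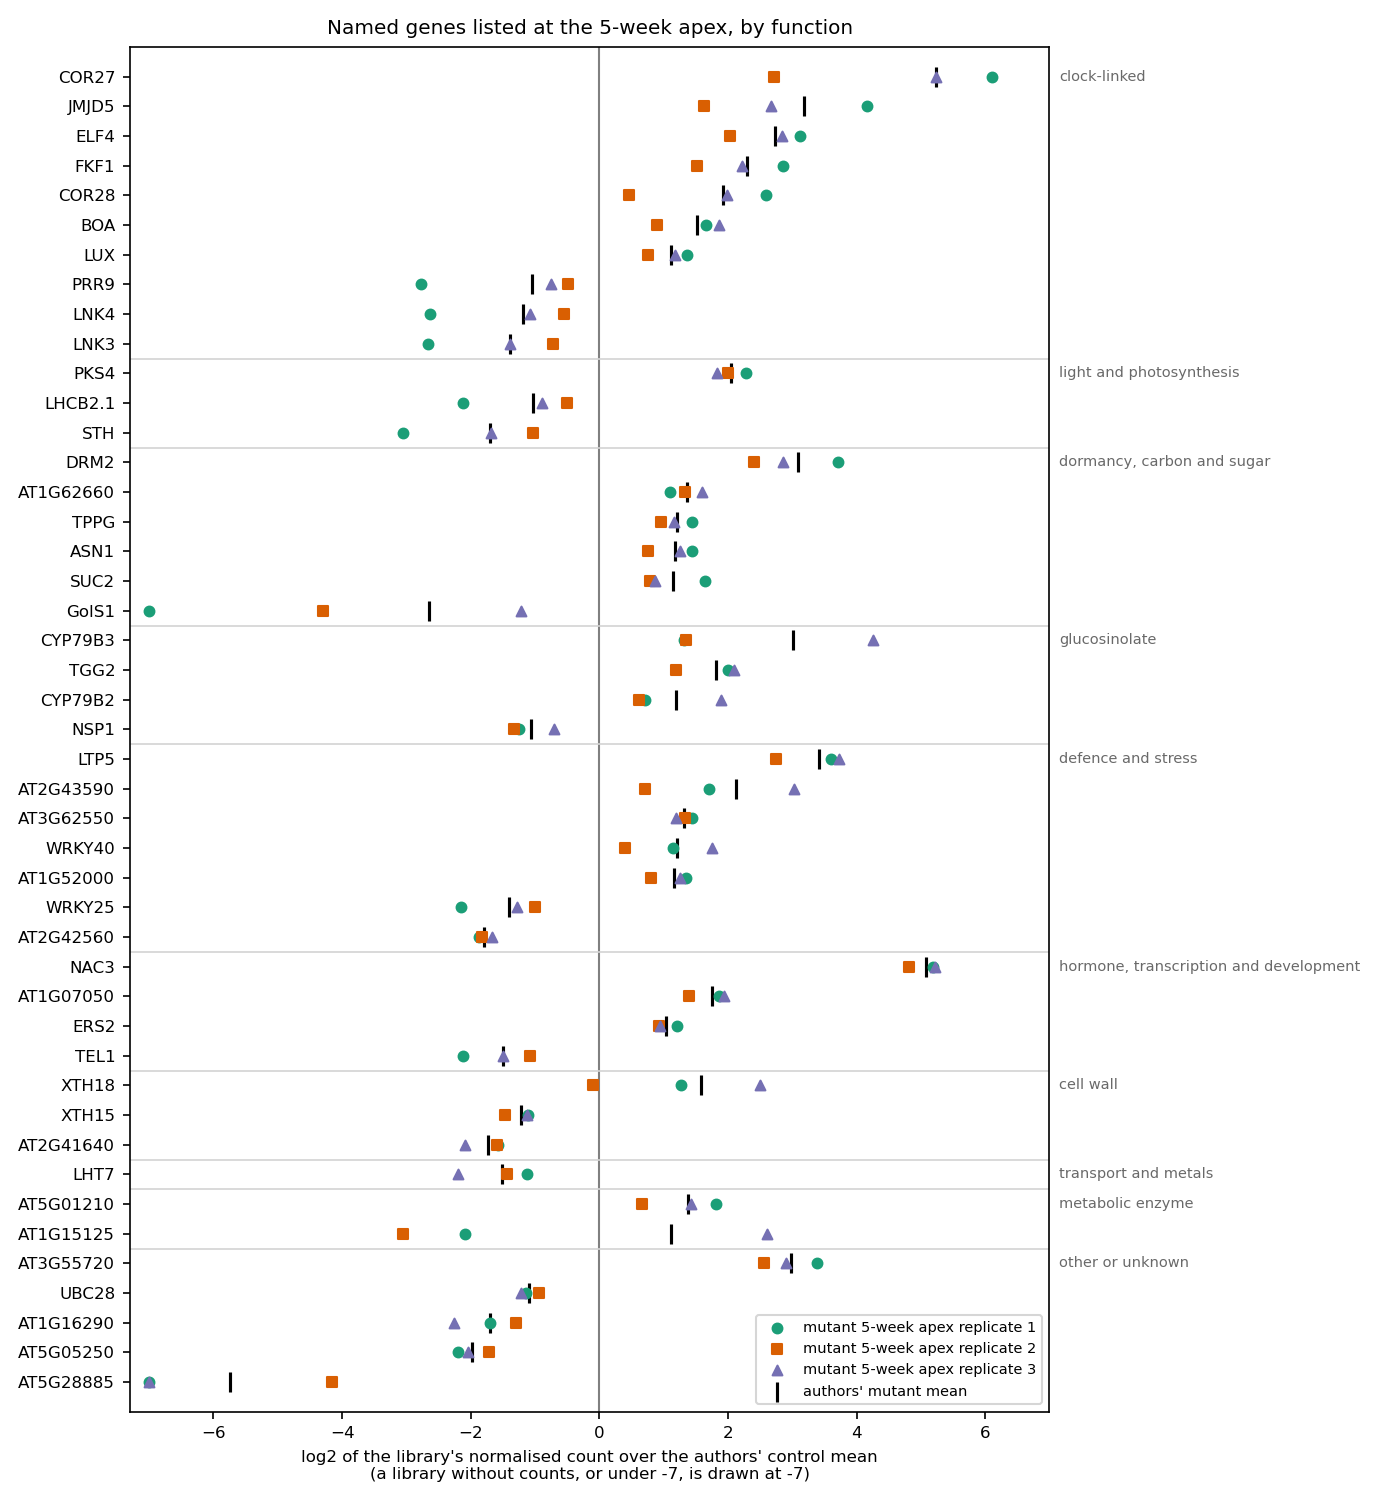
Each row is a named gene listed at the 5-week apex and paired with Arabidopsis, grouped by function. The axis gives log2 of the normalised count of a mutant library over the authors' control mean, with 1 symbol for each of the 3 libraries and a bar for the authors' mutant mean, and values under -7 or without counts are drawn at -7. Replicate 2 lies nearest to the control for all 10 clock-linked genes, while AT1G15125 and XTH18 have libraries on both sides of the control mean.

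Of the clock-linked genes, 7 were listed higher and 3 listed lower. The 7 were ELF4, LUX and its relative BOA, FKF1, the jumonji-domain gene JMJD5, and the cold-regulated pair COR27 and COR28, whose Arabidopsis proteins repress other clock genes. The 3 listed lower were PRR9, LNK3 and LNK4. Of a list of 14 evening genes, 4 were listed higher and 0 lower, whereas of 14 morning genes 0 were listed higher and 3 lower. A list of 24 clock and cold output genes gave 3 higher and 0 lower. Of all counted gene IDs 0.38% were listed in either direction. These gene lists and those below were drawn up with earlier results of these data known, so their counts are a description only.

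JMJD5 had 476, 82.1 and 169 normalised counts in replicates 1, 2 and 3, against a control mean of 26.7 in the authors' deposited table. All 3 libraries were above the control, with replicate 1 far above the others. The authors' deposited table gave it a fold of 9.08 with an adjusted p of 7.83e-42. COR27 had 47.4, 4.51 and 25.9 normalised counts, against a control mean of 0.685 and a fold change of 37.9 in the authors' deposited table. Its control mean was close to 0, and its replicate 2 rested on 5 counts, so the size of this fold is poorly fixed. COR28 had 118, 27.1 and 77.7 normalised counts over a control mean of 19.6, a fold change of 3.78 in the authors' deposited table. Replicate 2 of COR28 was only slightly above the control.

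ELF4 had 88.7, 41.5 and 73.3 normalised counts, against a control mean of 10.2 and a fold change of 6.65 in the authors' deposited table. FKF1, whose Arabidopsis protein targets repressors of CONSTANS for degradation in blue light, had 204, 80.3 and 130 normalised counts. Its control mean was 28.0 and its fold 4.93 in the authors' deposited table. For both genes every library was well above the control, and replicate 2 was the lowest. LUX, called PHYTOCLOCK 1 in the lists, had 331, 217 and 289 normalised counts, and its fold was 2.17 in the authors' deposited table. BOA had 86.9, 51.4 and 100 normalised counts with a fold of 2.88 there.

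The genes listed lower mirrored this order of libraries. LNK4 had 142, 606 and 421 normalised counts, against a control mean of 885 and a fold change of 0.441 in the authors' deposited table. PRR9 had 16.7, 81.2 and 67.9 normalised counts, against a control mean of 114 and a fold change of 0.484 in the authors' deposited table. LNK3 had 7.02, 27.1 and 17.0 normalised counts, with a fold of 0.381 there. In all 3 genes replicate 1 was lowest and replicate 2 was nearest to the control. The hour at which apices were taken is not stated in the labels.

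Light and photosynthesis genes were few and went both ways. PKS4, a phytochrome kinase substrate that acts in phototropism, had 94.8, 77.6 and 68.8 normalised counts and a fold change of 4.14 in the authors' deposited table. Its libraries were close to one another. STH, a B-box zinc finger protein that binds the light-signalling repressor COP1, had 18.4, 74.9 and 47.4 normalised counts against a control mean of 152, a fold change of 0.308 in the authors' deposited table. LHCB2.1, a light-harvesting antenna protein of photosystem II, had 1856, 5725 and 4361 normalised counts against a control mean of 8098, a fold change of 0.492 in the authors' deposited table. STH and LHCB2.1 were both lowest in replicate 1 and highest in replicate 2, like the morning clock genes listed lower. This order was not particular to them. Among the 39 genes listed lower with a mean of at least 10 counts, replicate 1 was lowest for 23 and replicate 2 highest for 29. LHCB2.1 belongs to a family of near-identical genes, among which reads may have been split, so its value is uncertain. The Rubisco chaperone gene RbcX1, chosen as an example after its values were seen, was listed higher with 40.4, 9.93 and 21.4 normalised counts. Of 33 photosynthesis genes 0 were listed higher and 1 lower, and of 50 light and shade genes 1 was listed each way.

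Genes of dormancy, carbon and sugar, a class read from the listed names, numbered 5 listed higher and 1 listed lower. Of a list of 17 dormancy and bud outgrowth genes, 1 was listed higher and 0 lower. Of 44 genes of sugar transport, starch and galactinol, 2 were listed higher and 1 lower. DRM2, a dormancy-associated gene, had 608, 245 and 336 normalised counts, against a control mean of 46.4 and a fold change of 8.53 in the authors' deposited table. Every library was far above the control. ASN1, the asparagine synthetase gene that Arabidopsis induces in darkness and carbon shortage, had 393, 245 and 348 normalised counts, with a fold change of 2.27 in the authors' deposited table. SUC2, the sucrose-proton symporter that loads the phloem, had 211, 117 and 123 normalised counts. Its control mean was 67.7 and its fold change 2.22 in the authors' deposited table.

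TPPG, a trehalose-6-phosphate phosphatase, had 118, 83.9 and 96.5 normalised counts and a fold change of 2.3 in the authors' deposited table. AT1G62660, a glycosyl hydrolase of the family that holds the invertases, had 113, 134 and 161 normalised counts and a fold of 2.57 there. For these genes the 3 libraries stayed above the control mean and close together. GolS1, a galactinol synthase, was listed lower with 0, 1.80 and 15.2 normalised counts against a control mean of 35.4 in the authors' deposited table. It rested on 0, 2 and 17 counts, and replicate 3 held nearly all of them. UBC28, a ubiquitin-conjugating enzyme placed in the carbon starvation list, was listed lower with 486, 563 and 461 normalised counts against a control mean of 1075 in the authors' deposited table. That list of 32 genes therefore held 1 gene in each direction.

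Glucosinolates are defence compounds of the cabbage family that myrosinase breaks down on wounding. Of a list of 47 glucosinolate genes, 3 were listed higher and 1 lower. CYP79B2 and CYP79B3 encode the enzymes that turn tryptophan into indole-3-acetaldoxime, the first step of indole glucosinolate synthesis. CYP79B2 had 115, 107 and 259 normalised counts, against a control mean of 70.0 and a fold change of 2.29 in the authors' deposited table. Without replicate 3 its fold was 1.59. CYP79B3 had 4.39, 4.51 and 34.0 normalised counts against a control mean of 1.77, a fold change of 8.09 in the authors' deposited table. Both genes were highest in replicate 3, and for CYP79B3 the other 2 libraries were far lower. The myrosinase gene TGG2 had 47.4, 27.1 and 50.9 normalised counts and a fold change of 3.52 in the authors' deposited table. NSP1, a nitrile specifier protein that steers the breakdown products, had 22.8, 21.7 and 33.1 normalised counts and a fold of 0.478 there.

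Defence and stress genes, also a class read from the listed names, numbered 8 listed higher and 2 listed lower. Of a list of 44 salicylic acid and defence genes, 1 was listed each way. WRKY40, a transcription factor of immune and abscisic acid responses, had 85.1, 50.5 and 129.6 normalised counts. The authors' deposited table gave it a control mean of 38.3 and a fold of 2.31. WRKY25, which acts in heat and salt stress, had 12.3, 27.1 and 22.3 normalised counts, with a fold of 0.379 there. The chitinase family gene AT2G43590 had 48.3, 24.4 and 122 normalised counts and a fold change of 4.36 in the authors' deposited table. WRKY40 and AT2G43590, like CYP79B2, were highest in replicate 3 and lowest in replicate 2.

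LTP5, a lipid transfer protein, had 13.2, 7.22 and 14.3 normalised counts over a control mean of 1.08 in the authors' deposited table. AT2G38380, a peroxidase, was listed at a control mean of 0 in the authors' deposited table and had 2.63, 0 and 19.7 normalised counts, so it stood on 1 library. The mannose-binding lectin gene AT1G52000 had 154, 106 and 145 normalised counts and a fold change of 2.23 in the authors' deposited table. AT3G62550, named in the table for its response to stress, had 69.3, 64.1 and 58.1 normalised counts and a fold change of 2.50 in the authors' deposited table. Both were even across the libraries. AT2G42560, of the late embryogenesis abundant proteins, was listed lower with 7.02, 7.22 and 8.04 normalised counts. The receptor-like kinase gene NIK1 and the alcohol dehydrogenase gene ADH1 are examples chosen after their values were seen. NIK1 had 1117, 1191 and 1137 normalised counts against a control mean of 515 in the authors' deposited table, and was among the most even of the listed genes. ADH1 had 472, 252 and 349 normalised counts and a fold of 2.1 there.

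Hormone and developmental regulators were single genes from different pathways. The ethylene receptor gene ERS2 had 513, 423 and 427 normalised counts against a control mean of 221, a fold change of 2.05 in the authors' deposited table. NAC3, a NAC transcription factor also called NAC055 that acts in abscisic acid and jasmonate responses, had 10.5, 8.12 and 10.7 normalised counts. Its control mean was 0.288 in the authors' deposited table, close to 0, which leaves the fold of 34.0 there poorly fixed. AT1G07050, which carries the CCT domain found in CONSTANS, had 94.8, 68.6 and 101 normalised counts and a fold change of 3.36 in the authors' deposited table. TEL1, a relative of the maize gene terminal ear1 that is expressed at the shoot apex in Arabidopsis, had 8.78, 18 and 13.4 normalised counts against a control mean of 38.0, a fold change of 0.353 in the authors' deposited table. All 3 libraries of TEL1 were below the control.

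Of the cell wall genes, XTH15 and XTH18 encode enzymes that cut and rejoin xyloglucan, and they were listed in opposite directions. XTH15 had 191, 149 and 189 normalised counts against a control mean of 413, a fold change of 0.428 in the authors' deposited table. XTH18 had 25.5, 9.93 and 59.9 normalised counts against a control mean of 10.6, a fold change of 3.00 in the authors' deposited table. Replicate 2 of XTH18 was just under the control mean. The glycosyltransferase gene AT2G41640 had 25.5, 25.3 and 17.9 normalised counts and a fold change of 0.301 in the authors' deposited table.

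Transport genes were LHT7, a member of the lysine and histidine transporter family, and 4 examples chosen after their values were seen. LHT7 had 24.6, 19.9 and 11.6 normalised counts and a fold change of 0.349 in the authors' deposited table. The sulphate transporter gene SULTR3;3 had 261, 250 and 250 normalised counts against a control mean of 523 there, with nearly equal libraries. The vacuolar iron transporter gene VIT1 had a fold of 2.04, the calcium pump gene ACA12 a fold of 4.59 and the heavy-metal domain gene NAKR3 a fold change of 2.36 in the authors' deposited table. VIT1, ACA12 and NAKR3 were listed higher and SULTR3;3 and LHT7 lower.

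Among the remaining genes AT5G28885, a protein of unknown function, had the widest finite change of those listed lower and paired. It had 0, 7.22 and 0 normalised counts against a control mean of 129 in the authors' deposited table. Its mutant means at the 3-week apex and in the leaf were listed at 0 there, against control means of 108 and 62.3. In the counts of the 9 mutant libraries it was detected in replicate 2 of the 5-week apex alone, with 8 counts. AT5G05250, of unknown function, had 9.66, 13.5 and 10.7 normalised counts and a fold change of 0.255 in the authors' deposited table. AT1G16290, also unknown, had 21.1, 28.0 and 14.3 normalised counts and a fold of 0.309 there. AT3G55720, of the DUF620 family, had 33.4, 18.9 and 24.1 normalised counts and a fold change of 7.94 in the authors' deposited table. The acyltransferase family gene AT5G01210 had 539, 244 and 415 normalised counts and a fold of 2.59 there. The methyltransferase gene AT1G15125 had 7.02, 3.61 and 183 normalised counts against a control mean of 29.9 in the authors' deposited table, so that 2 of its 3 libraries lay under the control although it was listed higher.

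The files do not pair the other 50 genes with an Arabidopsis gene, 20 of them listed higher and 30 lower. Aa_G88840 had 354, 474 and 293 normalised counts and a fold change of 3.01 in the authors' deposited table. Aa_G996590, an example chosen after its values were seen, had 97.4, 260 and 168 normalised counts and a fold of 4.88 there. Aa_G874400 had 49.2, 90.2 and 39.3 normalised counts against a control mean of 308, a fold change of 0.193 in the authors' deposited table. The most abundant listed gene was also unpaired, and had 6430, 22592 and 19104 normalised counts against a control mean of 35136 in the authors' deposited table. It was lowest in replicate 1 and highest in replicate 2. Of the 39 genes listed lower with a mean of at least 10 counts, 23 were lowest in replicate 1 and 29 highest in replicate 2.

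Of 26 gene lists 12 held no gene listed at the 5-week apex. They were those for flowering and inflorescence, jasmonate, auxin, cytokinin, gibberellin, touch with calcium and heat, flavonoids, sulphur, iron with copper and phosphate, shoot apical meristem markers, leaf and epidermis markers and cell division. At the 3-week apex the authors' deposited tables listed 2 flowering genes higher, and in the leaf 4 lower. Since only genes in 1 of the 6 deposited lists carry a name, a gene without a listing may be unnamed, unlisted or under the authors' limits. For the same reason the identity of the tissue could be checked only in part. None of 21 meristem markers was paired with a counted ID. The leaf genes CA1, CA2 and CAT2 summed to 0.645 to 1.85 CPM (counts scaled to library size) in the 5-week apex libraries, with CAT2 at 0, against 10168 to 10668 CPM in the leaf. LHCB2.1, a listed gene, was left out of this sum. It stood at 136 to 423 CPM at the 5-week apex and at 7475 to 7863 CPM in the leaf. The paired leaf and epidermis markers (CER1, KAT1, PDF1 and TMM) summed to 678 to 882 CPM at the 5-week apex and to 35.4 to 69.8 CPM in the leaf. Most of the apex sum was PDF1, at 647 to 836 CPM. CER1, at 19.3 to 32.4 CPM at the apex and 21.8 to 27.7 CPM in the leaf, overlapped between the tissues. KAT1 did too, at 3.42 to 4.07 CPM and 2.57 to 3.76 CPM. By CA1, CA2, CAT2, LHCB2.1, PDF1 and TMM the 5-week apex libraries stood apart from leaf tissue, and by CER1 and KAT1 they did not. The only other paired vascular marker beside the listed gene SUC2 was SMXL5, at 146 to 177 CPM in the 5-week apex libraries.

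The 3 mutant libraries did not contribute alike. They also entered the authors' listing, so their order and spread in the listed genes are not independent of it. Among the 102 listed genes with a mean of at least 10 counts, replicate 2 was nearest to the control for 73 (71.6%) and replicate 1 was farthest for 56 (54.9%). Among 19716 genes with at least 10 counts on average, replicate 2 was lowest for 35.9% and highest for 35.4%. For genes listed higher, replicate 2 was lowest for 44 of 63, and for genes listed lower it was highest for 29 of 39. This leaning was seen outside the clock too, with replicate 2 nearest for 37 of 52 other paired genes and for 26 of 40 unpaired genes. The share of reads outside annotated genes was 13.9%, 16.3% and 14.6% in replicates 1, 2 and 3, highest in replicate 2, and its part in this pattern was not tested.

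Listed genes, which were chosen on the mean of these same libraries, also varied more between replicates than genes in general. Their highest library exceeded their lowest more than 2-fold in 46 of 102 genes, against 4.61% of all genes, and their median coefficient of variation was 32.0% against 9.45%. Genes with 0 counts in a library have no such ratio and were not counted as over 2-fold. Among the listed genes this left out Aa_G899430, with 0, 2.71 and 63.4 normalised counts. The gap was present at each level of counts, with medians of 32.9% against 22.8% from 10 to 50 counts, 31.2% against 12.2% from 50 to 200 counts and 30.9% against 7.01% above 200 counts. Without replicate 1, 90 of the 112 genes with a control mean above 0 were at least 2-fold from the control. Without replicate 2 the number was 108, and without replicate 3 it was 103. For 20 of 62 genes listed higher the fold was under 2 once the highest library was left out, and for 11 of 50 genes listed lower it was above 0.5 without the lowest library.

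**Figure D2:**
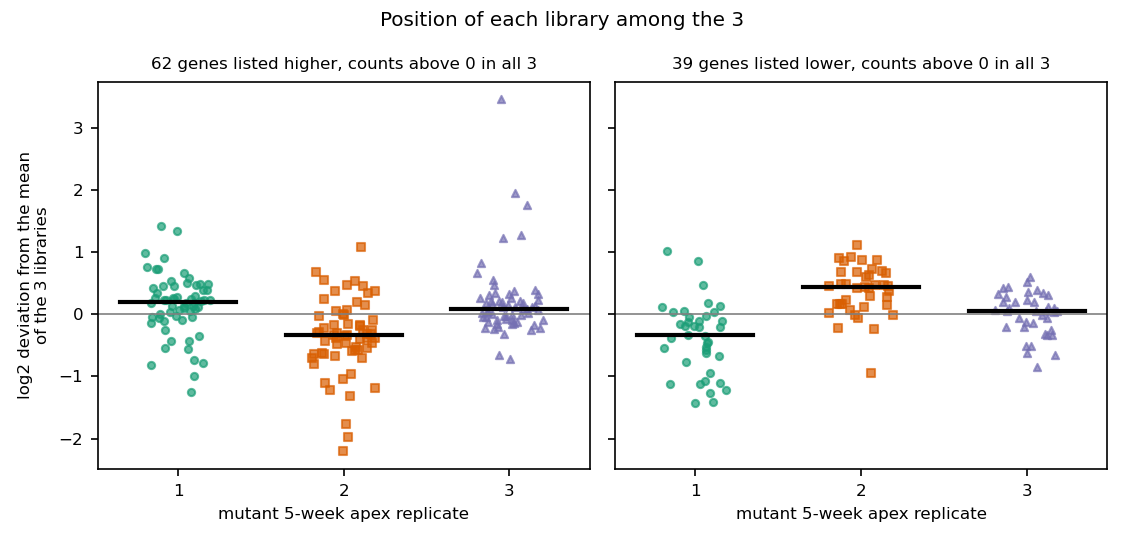
Points are genes listed at the 5-week apex with a mean of at least 10 counts and counts in every library, 62 listed higher and 39 listed lower. The vertical axis is the log2 deviation of 1 library from the mean of log2 normalised counts of the 3 libraries, and bars are medians. For the 62 genes the medians of replicates 1, 2 and 3 are 0.20, -0.34 and 0.08, and for genes listed lower replicate 2 stands highest.

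The listed genes were then followed into the authors' lists for the younger apex and the leaf. Of the 66 genes listed higher, 37 (56.1%) were also listed higher at the 3-week apex, where they made up 15.3% of 242 genes. Of the 50 genes listed lower, 23 (46.0%) were listed lower there too, 27.1% of 85 genes. In the leaf 17 (25.8%) were also listed higher, 4.28% of 397 genes, and 13 (26.0%) were also listed lower, 1.62% of 801 genes. No gene was listed in opposite directions at the 2 apex ages, whereas 7 genes listed higher at the 5-week apex were listed lower in the leaf and 1 went the other way. Each setting has a control mean of its own, and a gene absent from a list may have missed a limit by little, so a listing in 1 setting alone is not shown to be a difference between settings.

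Across the authors' deposited lists, 21 genes were listed in the same direction in all 3 settings, 12 higher and 9 lower. For DRM2 the authors' deposited table gave folds of 10.7 in the younger apex, 8.53 in the older apex and 10.8 in the leaf. In the same order PKS4 had folds of 3.11, 4.14 and 4.04 there. ASN1 had folds of 4.79, 2.27 and 4.65, lowest at the 5-week apex, in the same authors' deposited tables. UBC28 had folds of 0.391, 0.468 and 0.294 there. Of the 10 clock-linked genes 8 were listed in the same direction at both apex ages and none was listed in the leaf. The leaf lists did hold other clock genes, with 2 of the evening list higher and 2 of the morning list lower. At the 3-week apex 4 evening genes were listed higher and 0 lower, and 1 morning gene was listed each way.

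Folds at the 2 apex ages can be set side by side only for genes past the authors' limits at both. Over the 33 shared genes listed higher with finite folds, the median fold was 3.13 at 3 weeks and 3.53 at 5 weeks in the authors' deposited tables, and 13 were farther from 1 at 3 weeks. Over the 22 shared genes listed lower, the median fold was 0.281 at 3 weeks and 0.305 at 5 weeks in the authors' deposited tables, and 12 were farther from 1 at 3 weeks. COR27, with 6.86 at 3 weeks against 37.9 at 5 weeks, and JMJD5, with 3.73 against 9.08, had wider folds at 5 weeks in the authors' deposited tables. BOA, with 3.73 against 2.88, had the opposite order there. These differences between the ages were not tested, and the control mean of COR27 was close to 0 at 5 weeks. A total of 41 genes were listed at the 5-week apex alone, 19 higher and 22 lower, among them PRR9, LNK3, STH, LHCB2.1, XTH15 and NSP1 listed lower and TGG2, SUC2, TPPG and LTP5 listed higher.

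**Figure D3:**
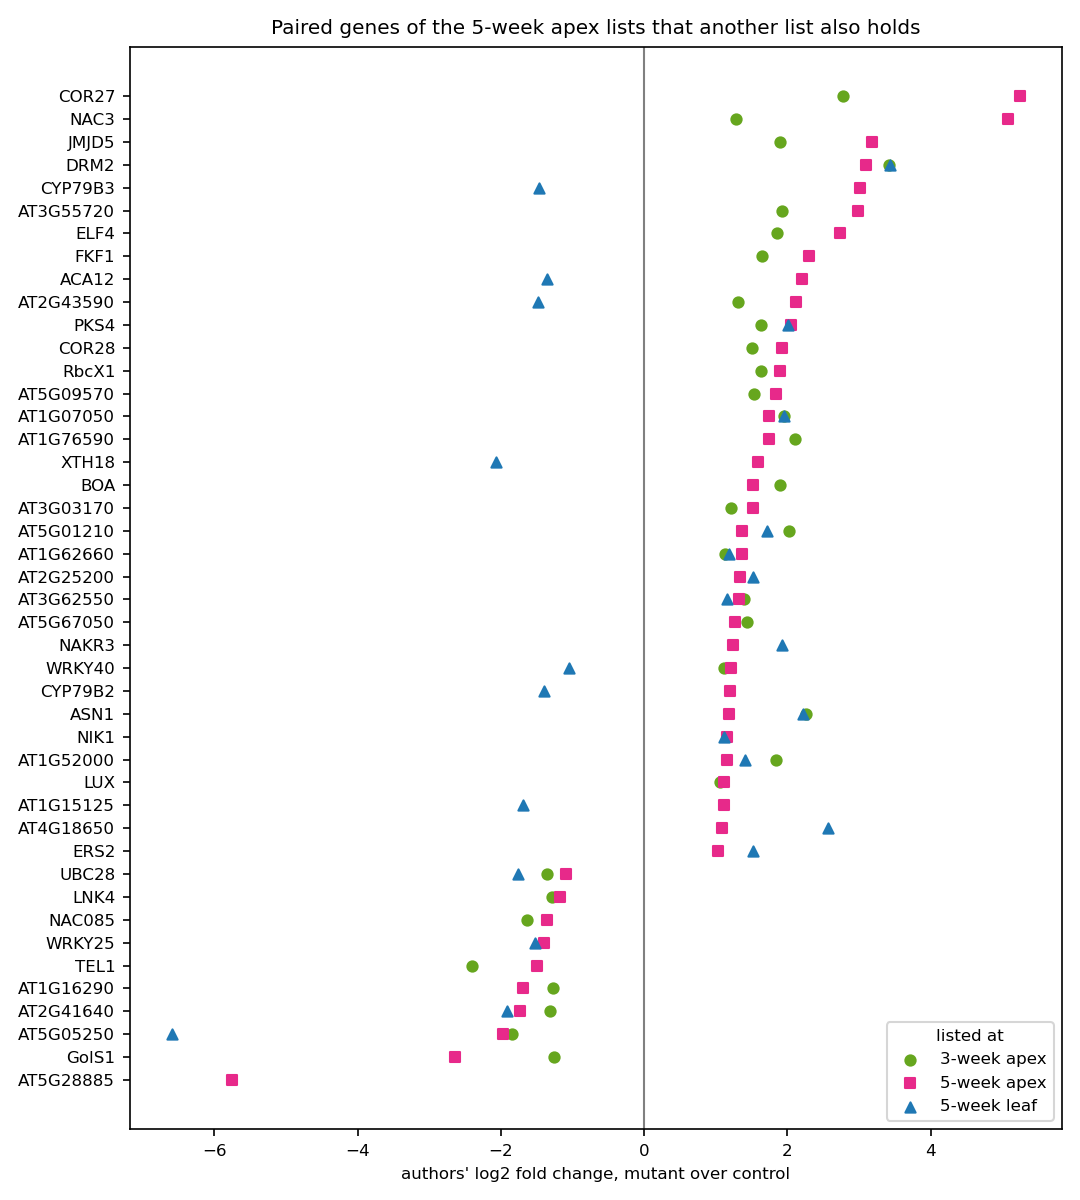
Rows are paired genes listed at the 5-week apex and in at least 1 other setting, and the axis is the authors' log2 fold of mutant over control. Circles are the 3-week apex, squares the 5-week apex and triangles the leaf, shown only where the gene was listed with a finite fold. DRM2 is alike in all 3 settings, and CYP79B2, CYP79B3, ACA12, AT2G43590 and WRKY40 have leaf triangles left of 0.

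How the same genes behaved with age in the mutant was read from the counts themselves. The 5-week apex libraries were compared with the 3-week apex libraries by edgeR's quasi-likelihood test over all 20633 genes kept, and called where the adjusted p was under 0.05. The 5-week apex libraries also entered the authors' lists, so this contrast is not independent of the listing. Of the 116 listed genes 105 passed the filter on low counts, 63 listed higher and 42 listed lower. Of the 105, 58 (55.2%) were called, against a background of 40.1% of all genes tested. Among the genes listed higher 28 were lower and 12 were higher at 5 weeks than at 3 weeks, where 21% and 19.1% of all genes were called. Among the genes listed lower 7 were lower and 11 were higher. The median log2 change was -0.68 for genes listed higher and 0.13 for those listed lower, against 0.01 over all genes.

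The clock-linked genes were split in this way. ELF4 had 12.3, 9.46 and 11.4 CPM at 3 weeks and 6.51, 3.07 and 5.42 CPM at 5 weeks, with no overlap. It fell by 1.14 ± 0.24 (SE) on the log2 scale, with an adjusted p of 0.00153 in edgeR. LUX fell by 0.90 ± 0.12 (edgeR adjusted p = 2.06e-05), BOA fell by 1.38 ± 0.18 (edgeR adjusted p = 2.02e-05) and FKF1 fell by 0.83 ± 0.22 (edgeR adjusted p = 0.00616). JMJD5 fell by 1.17 ± 0.36 (edgeR adjusted p = 0.0171) and COR28 fell by 0.86 ± 0.31 (edgeR adjusted p = 0.0374). JMJD5 lost the call without replicate 3 of either age, with edgeR adjusted p of 0.075 and 0.078, and with DESeq2 (adjusted p = 0.14). COR28 lost it without replicate 2 or 3 of either age, with edgeR adjusted p from 0.069 to 0.17, and also with library totals (0.057) and with only the 2 groups compared (0.0503). Without 5-week replicate 1 the log2 differences of JMJD5 and COR28 were -2.11 and -1.36, and without 5-week replicate 2 they were -0.76 and -0.47. COR27 had 3.33, 3.75 and 3.19 CPM against 3.48, 0.334 and 1.92 CPM and missed the limit, at a log2 difference of -0.83 (edgeR adjusted p = 0.131). It was called lower with limma and voom (-1.33, adjusted p = 0.036) and without 5-week replicate 1 (-1.59, edgeR adjusted p = 0.0059).

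In the other direction LNK4 had 10.2, 7.63 and 7.18 CPM at 3 weeks and 10.4, 44.8 and 31.1 CPM at 5 weeks. It rose by 1.78 ± 0.34 on the log2 scale (edgeR adjusted p = 0.000758), with replicate 1 barely above the 3-week libraries. PRR9 rose by 2.19 ± 0.49 (edgeR adjusted p = 0.00228), and its replicate 1, at 1.22 CPM, lay within the 3-week range of 0.333 to 1.5 CPM. LNK3 was not called, at a log2 difference of 1.22 ± 0.50 (edgeR adjusted p = 0.0620). It was called higher with library totals (adjusted p = 0.044), with no filter on low counts (0.036), and without replicate 1 of the 3-week apex (0.037) or of the 5-week apex (0.0068). So 6 of the 7 clock-linked genes listed higher were called lower at 5 than at 3 weeks with TMM scaling and all 9 libraries. Of all genes 21% were called lower, as were 28 of the 63 tested genes listed higher. Of the 3 clock-linked genes listed lower 2 were called higher. Of all genes 19.1% were called higher, as were 11 of the 42 tested genes listed lower. The calls of COR27, COR28, JMJD5 and LNK3 depended on the setting.

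**Figure D4:**
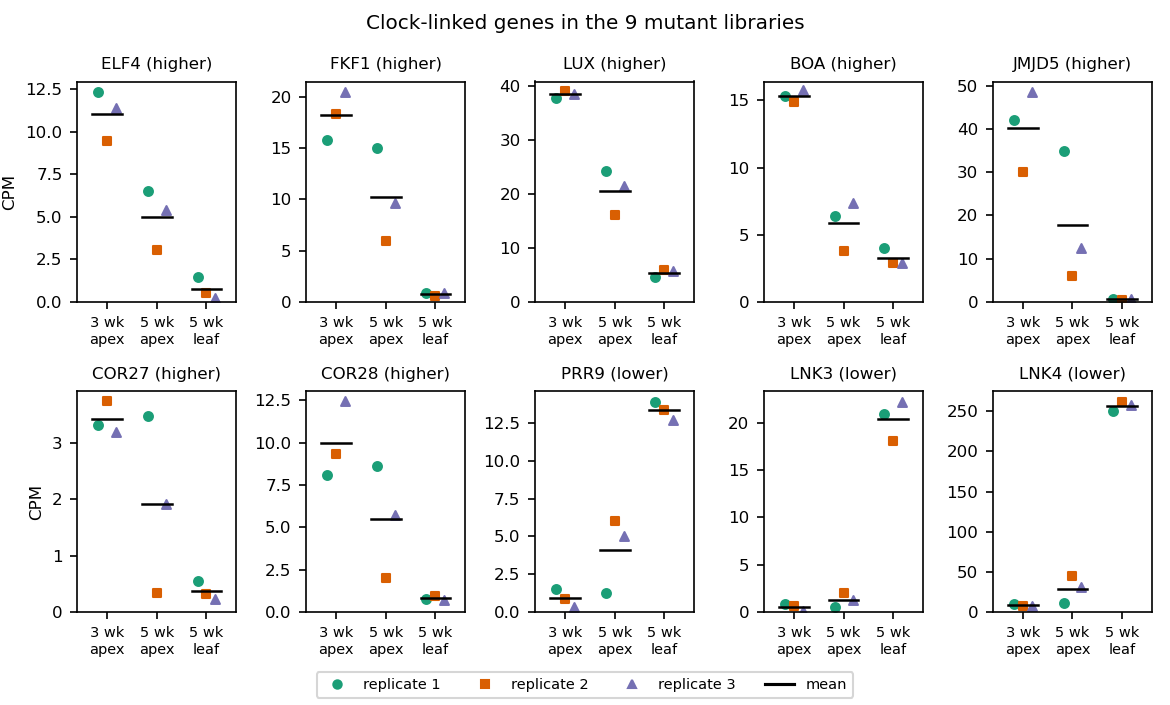
Each panel is a clock-linked gene listed higher or lower at the 5-week apex, with CPM on the vertical axis and the mutant tissues on the horizontal axis. Symbols are replicates 1, 2 and 3 and bars are means. ELF4, LUX and BOA stand lower at 5 weeks than at 3 weeks without overlap, and LNK4 stands at 251 to 262 CPM in the leaf.

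DRM2, ASN1, SUC2, AT1G62660 and TPPG fell with age in the mutant apex. DRM2 had 183, 219 and 185 CPM at 3 weeks and 44.7, 18.1 and 24.8 CPM at 5 weeks, a fall by 2.74 ± 0.25 (edgeR adjusted p = 7.85e-07). ASN1 had 242, 280 and 232 CPM at 3 weeks and 28.9, 18.1 and 25.7 CPM at 5 weeks, where it fell by 3.37 ± 0.33 (edgeR adjusted p = 1.44e-06). The groups did not overlap for either gene. SUC2 fell by 1.27 ± 0.16 (edgeR adjusted p = 1.35e-05), AT1G62660 fell by 1.05 ± 0.14 (edgeR adjusted p = 2.62e-05) and TPPG fell by 1.03 ± 0.13 (edgeR adjusted p = 1.88e-05). Thus 5 of the 6 genes of this class were called lower, where 21% of all genes and 28 of the 63 tested genes listed higher were. GolS1 was not called, at a log2 difference of -1.36 (edgeR adjusted p = 0.141), but was called lower with limma and voom (-2.57, adjusted p = 0.016) and without 5-week replicate 3 (-3.87, edgeR adjusted p = 0.0032). UBC28, of the carbon starvation list but not counted in this class, rose by 0.43 ± 0.09 (edgeR adjusted p = 0.00155). Tissue markers also moved between the ages. CA1, CA2 and CAT2 summed to 7.42 to 43.0 CPM in the 3-week apex libraries, above their 5-week range. LHCB2.1, left out of that sum, had 268, 236 and 189 CPM at 3 weeks and 136, 423 and 322 CPM at 5 weeks. The leaf and epidermis markers summed to 1245 to 1513 CPM at 3 weeks, also above their 5-week range. Most of this sum was PDF1, at 1174 to 1409 CPM. KAT1, at 1.93 to 3.68 CPM at 3 weeks, overlapped its 5-week range of 3.42 to 4.07 CPM. SMXL5 stood at 75.7 to 92.3 CPM at 3 weeks, below its 5-week range. The part of these markers in the falls of SUC2, TGG2 and the other listed genes, of which SUC2 and TGG2 were far higher in the leaf, was not tested.

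Other listed genes changed with age in both directions. TGG2 fell by 3.02 ± 0.19 (edgeR adjusted p = 1.83e-08), and NSP1, listed in the opposite direction, fell by 2.45 ± 0.20 (edgeR adjusted p = 2.36e-07). WRKY40 fell by 1.44 ± 0.23 (edgeR adjusted p = 0.000161) and NAC3 fell by 2.6 ± 0.37 (edgeR adjusted p = 4.83e-05). PKS4 fell by 1.73 ± 0.16 (edgeR adjusted p = 7.13e-07). NIK1, at 56.4, 52.1 and 49.9 CPM at 3 weeks and 82.0, 88.1 and 84.0 CPM at 5 weeks, rose by 0.68 ± 0.06 (edgeR adjusted p = 9.95e-07). STH and LHCB2.1 were not called, with edgeR adjusted p of 0.461 and 0.307, but LHCB2.1 was called higher without 5-week replicate 1 (edgeR adjusted p = 0.00026).

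**Figure D5:**
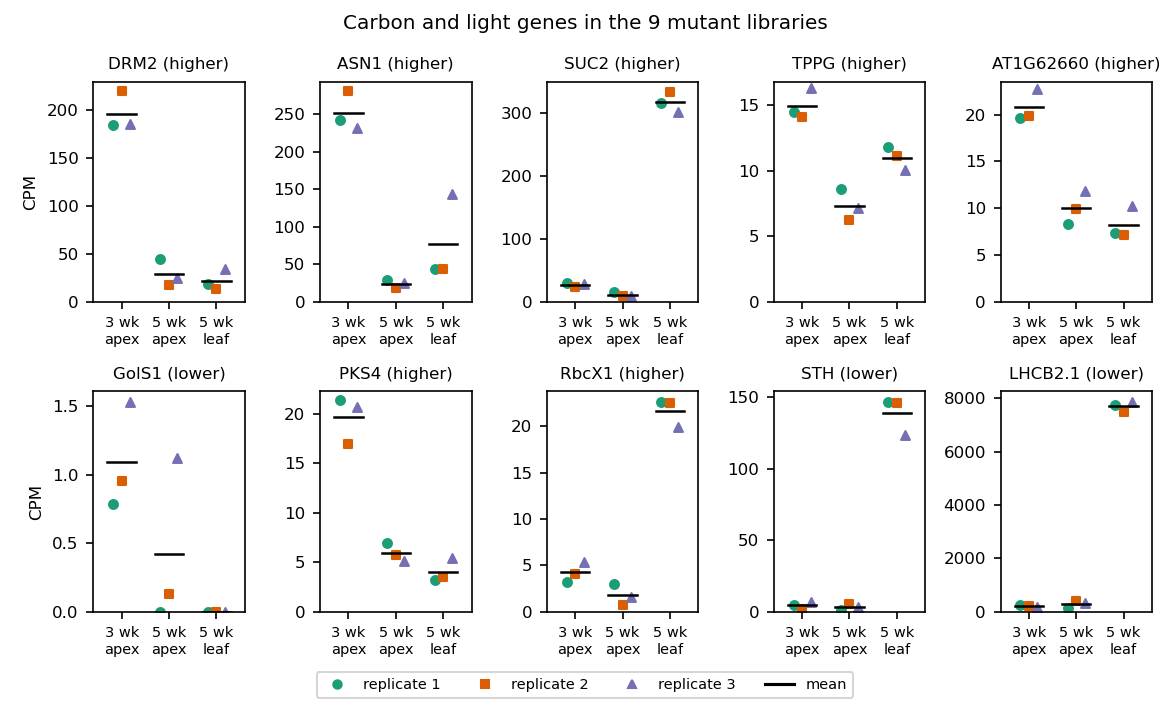
Panels show genes of carbon supply and of light listed at the 5-week apex, with CPM on the vertical axis, mutant tissues on the horizontal axis, symbols for replicates and bars for means. DRM2 and ASN1 drop from 183 or more CPM at 3 weeks to at most 44.7 CPM at 5 weeks, and SUC2, STH and LHCB2.1 stand highest in the leaf.

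The leaf set the listed genes in a wider range. Against the 5-week apex 82 of 105 (78.1%) were called by edgeR, near the background of 79.1% of all genes, and so no result about the listed genes. Among those listed higher 33 were lower and 17 higher in the leaf, with 42% and 37.1% of all genes called in those directions. Among those listed lower 12 were lower and 20 higher. With library totals in place of TMM scaling, which moved the median of all genes by -0.83 on the log2 scale, these counts became 42 and 12 for genes listed higher and 18 and 17 for genes listed lower. Of all 20633 genes, 14239 were then called lower and 4026 higher.

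The leaf against the 3-week apex shares no library with the 5-week listing. It is still not independent of the choice of genes, which rested on their level in the mutant apex. At the 3-week apex 37 of the 66 genes listed higher and 23 of the 50 listed lower were listed the same way. There 87 of 105 listed genes (82.9%) were called by edgeR, against 74.9% of all genes. Among genes listed higher 37 were lower and 14 higher in the leaf, with backgrounds of 38.3% and 36.6%. Among genes listed lower 12 were lower and 24 higher. The median log2 difference was -1.24 for genes listed higher and 1.01 for genes listed lower, against -0.03 over all genes. With library totals, which moved the median of all genes by -0.72, the genes listed higher gave 44 lower and 11 higher, and those listed lower gave 16 lower and 18 higher. Of all 20633 genes, 13538 were called lower and 3991 higher with library totals.

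The clock-linked genes split the same way. All 7 listed higher were lower in the leaf than in the 5-week apex, among them FKF1 with 0.884, 0.531 and 0.893 CPM in the leaf and 15.0, 5.94 and 9.65 CPM in the apex (log2 difference -3.72, edgeR adjusted p = 2.70e-07). COR27 lost this call with limma and voom (adjusted p = 0.073). PRR9, LNK3 and LNK4 were higher in the leaf. Of all genes 42% were called lower and 37.1% higher in the leaf than in the 5-week apex. LNK4 had 251, 262 and 257 CPM there, and its log2 difference from the 5-week apex was 3.16 (edgeR adjusted p = 2.50e-08). LNK3 differed by 4.02 (edgeR adjusted p = 1.95e-09). Leaf and apex were not stated to have been taken at the same hour.

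Other listed genes with a wide difference were spread over both lists. TGG2 had 2278, 2155 and 2270 CPM in the leaf against 3.48, 2.00 and 3.77 CPM at the 5-week apex, a log2 difference of 9.49 (edgeR adjusted p = 4.60e-16). LTP5 had 118, 112 and 126 CPM in the leaf against 0.967, 0.534 and 1.06 CPM, a log2 difference of 7.10 (edgeR adjusted p = 8.00e-16). SUC2 was higher in the leaf by 4.84 (edgeR adjusted p = 2.66e-14) and LHCB2.1 by 4.71 (edgeR adjusted p = 3.01e-10). TGG2, LTP5 and SUC2 were listed higher in the mutant apex, LHCB2.1 lower, and so a leaf-rich gene was found in either list. VIT1 had counts in every apex library and 0 in all 3 leaf libraries.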

How the data were processed

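Per the labels, poly(A) RNA was made into libraries with a NEBNext directional kit and sequenced as single reads of 100 bases. The deposited table holds whole-number counts per gene for 9 mutant libraries, as made by the authors. STAR, HTSeq 0.5.4p1, DESeq and DESeq2 are the tools in the submitters' processing notes, and the genome build is not given in the sources. Reads without a gene took 10.7% to 19.2% of each library and were left out. The entry for reads with several alignments is 0 in every library, so genes with near-identical copies are uncertain. All columns of per-sample values were used.

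The authors also deposited lists of the genes that differed between mutant and control. Per the file headers, these give a mean expression signal of normalised counts per group, the fold (ratio of mutant to control mean), its log2 and an adjusted p-value, all made by the authors. No control library was analysed here. Libraries were put on the authors' scale by median-ratio size factors, and 2 listed IDs with 2 count entries were resolved by the entry that matched the deposited mean. CPM are per TMM-scaled library size.

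The test was edgeR 4.0.16 (R 4.3.3) (TMM, expression filter, quasi-likelihood F-test, 1 model with 3 groups, Benjamini-Hochberg over 20633 genes). The SE was obtained by dividing the log2 fold change by the root of the F statistic. The step was tested on simulated data. Alternatives were RLE factors, library totals, no filter, DESeq2 1.42.0, limma 3.58.1 with voom, a replicate block, only the compared groups, each library left out, and an adjusted p of 0.01 or 4-fold for the authors' lists. Tables used Python 3.11.15 with pandas 2.3.3 and numpy 2.4.6, and figures matplotlib 3.10.9.

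The listed genes and gene lists were chosen with earlier results of these data known. Named are listed genes in 1 of 26 gene lists, the 10 paired genes with the largest authors' fold in each direction, those listed in all 3 settings and the 5 with the widest ratio of highest to lowest library. Others are examples named as such or genes on opposite sides of the control in apex and leaf. Of 10 unpaired genes under this rule only Aa_G88840 and Aa_G874400 are printed. Function classes were read from the deposited names and descriptions.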

Additional observations from a re-analysis of the deposited data

Results flagged for a closer look

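A total of 6 genes stood on opposite sides of the control at the 5-week apex and in the 5-week leaf, in every library of both tissues, with the control values known only as the authors' means. The difference between the tissues was not tested. In the authors' deposited tables CYP79B3 had a fold of 8.09 at the apex and 0.361 in the leaf, and its partner enzyme CYP79B2 had 2.29 and 0.38. The calcium pump gene ACA12 had 4.59 at the apex and 0.389 in the leaf in the authors' deposited tables. The chitinase family gene AT2G43590 had 4.36 and 0.357, and WRKY40 had 2.31 and 0.485, in the authors' deposited tables. The unpaired gene Aa_G68870 went the other way, with 0.401 at the apex and 2.36 in the leaf there. In the leaf CYP79B2 had 405, 397 and 283 normalised counts against a control mean of 953, and WRKY40 had 201, 170 and 121 against 338, in the authors' deposited tables for the control. At the apex CYP79B2, CYP79B3, WRKY40 and AT2G43590 were all highest in replicate 3, whereas ACA12 was lowest there. Replicate 2 of CYP79B2, WRKY40 and AT2G43590 stood at only 1.53, 1.32 and 1.64 times the authors' apex control mean.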

How the results depend on the processing

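At 4-fold in place of the authors' limit 23 genes were listed higher and 16 lower, and at an adjusted p of 0.01 the numbers were 48 and 37. With single libraries left out, listed genes called between apex ages numbered 50 to 60 (main 58), between leaf and 5-week apex 78 to 86 (82) and between leaf and 3-week apex 82 to 86 (87). For genes listed higher the calls ranged from 10 to 12 higher and 26 to 31 lower between the ages, 16 to 19 and 31 to 36 for leaf against 5-week apex, and 13 to 15 and 34 to 38 for leaf against 3-week apex. For genes listed lower they ranged from 8 to 15 higher and 5 to 8 lower, 19 to 20 and 8 to 12, and 22 to 24 and 11 to 13. All genes called numbered 6256 to 8513, 15689 to 16323 and 14781 to 15223. Genes with every library on the listed side numbered 110 to 113. The share of called genes that were higher was 47.6% between ages and 66.2% with library totals or 37.2% with DESeq2, and for leaf against the apex at 5 and 3 weeks it was 46.9% and 48.9%, or 22% and 22.8% with library totals. With library totals the log2 difference of leaf against 5-week apex turned to -0.42 for AT5G01210, -0.24 for TPPG and -0.70 for NSP1, and that of leaf against 3-week apex to -0.71 for WRKY40 and -0.47 for UBC28. Without 5-week apex replicate 3 AT1G15125 turned to 3.41 for leaf against 5-week apex. Same-numbered libraries correlated in their deviations from the group means at -0.08 to 0.01. With 3 libraries per group this cannot show whether the replicate numbers pair libraries, and the labels do not say. A replicate block gave 7681 genes called between ages in place of 8265, with 55, 84 and 89 listed genes called in the 3 contrasts. Depth limits genes with few counts, and 14 listed genes had a mean under 10 counts.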
